A study of Mus musculus with 9 samples.

Results

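The genes described here encode proteins of the mitochondrial ribosome. They were chosen by symbol: every row of the deposited count table that starts Mrpl or Mrps followed by a digit, without pseudogene symbols. The rule found 76 of 34092 gene rows, 47 with large subunit symbols (Mrpl) and 29 with small subunit symbols (Mrps). Below, large and small subunit go by symbol alone, so Mrps30, placed in the large subunit in structures, counts as small. All 76 passed the filter on low counts, and the lowest count of any of them in any library was 9 reads.

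The cells were primary mouse regulatory T cells, the suppressive CD4 lineage defined by Foxp3, sorted directly from the animal in the resting state; ages are not given in the labels. CNS2KO cells (genotype Foxp3deltaCNS2-gfp) lack CNS2, a conserved noncoding element in an intron of Foxp3, and carry a green fluorescent reporter in Foxp3. WT cells (genotype Foxp3gfp) carry the reporter alone, so both genotypes have it. The labels list 3 CNS2KO and 6 WT samples; 2 columns numbered 407, a number that both genotypes have, held identical values and were not used, which left 2 CNS2KO libraries (399 and 408) and 5 WT libraries (398, 402, 405, 1032 and 1037).

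Mitochondrial ribosomes translate the few proteins that mitochondrial DNA encodes, all of them subunits of the respiratory chain and ATP synthase. Their RNA comes from mitochondrial DNA, while every one of their proteins is made in the cytosol from nuclear genes, imported and assembled in the organelle. Some of the proteins have counterparts in bacterial ribosomes and others are found in mitochondria only. In T cells, mitochondrial translation supports respiration, on which regulatory T cells are known to depend.

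Reads on genes ranged from 21427618 to 21836578 in CNS2KO libraries and from 16557424 to 19154642 in WT libraries. Foxp3 stood at 464 and 441 CPM (the depth-normalised read count over gene rows, TMM-scaled between libraries) in CNS2KO, and between 410 and 607 CPM in WT. CNS2 is noncoding, so this level does not check the genotype. The 6 markers of regulatory T cells (Foxp3, Il2ra, Ctla4, Ikzf2, Cd4 and Cd3e) summed to 4650 and 5063 CPM in CNS2KO and to 4499 to 5335 CPM in WT. Library CNS2KO 399 stood apart in the sum of 9 markers of red blood cells. They summed to 160 CPM there, against 32.8 CPM in CNS2KO 408 and 7.37 to 30.9 CPM in WT. Of these, Slc4a1 was at 0 in every library but CNS2KO 408. Epb4.2 was at 0 in CNS2KO 399, at 0.957 CPM in CNS2KO 408 and at up to 1.78 CPM in WT. Hbb-b1, a globin gene, stood at 78.4 CPM in CNS2KO 399. Markers of B cells summed to 1362 and 1102 CPM in CNS2KO and to 1190 to 1507 CPM in WT, and myeloid markers to 80.4 and 96.7 CPM in CNS2KO and to 65.4 to 90.5 CPM in WT. Markers of CD8 and NK cells summed to 78.9 and 66.6 CPM in CNS2KO and to 66.4 to 82.1 CPM in WT, with Ncr1 at 0 in every library. Gzma stood at 6.29 and 2.39 CPM in CNS2KO and at 0 to 1.03 CPM in WT. No other marker of this list was above WT in both CNS2KO libraries. Markers of proliferation summed to 398 and 510 CPM in CNS2KO and to 368 to 557 CPM in WT. In CNS2KO 399, Ccnb1 (0.756 CPM), Top2a (30.2) and Mki67 (35.9) were the lowest of all libraries and Cdk1 (19.2) the highest. CNS2KO 408 stood at 12.6, 120, 58.5 and 7.42 CPM in that order. Mcm2, Mcm3, Mcm5 and Pcna lay inside the WT range in CNS2KO 399. The part of other cells in the results below was not tested.

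The promoters of these genes often hold short sequence elements known from nuclear genes of mitochondria, and 6 are shown, those of the members with the smallest unadjusted p among those higher in CNS2KO, with or without a motif. RefSeq promoters of build GRCm38.p6, which run from 250 bases before to 50 bases after a gene's start, matched 67 of the 76 symbols. Capitals mark 3 motifs searched on both strands: the core CCGGAAG of Ets factors such as the GA-binding protein, the core TGCGCA of nuclear respiratory factor NRF1, and AAGATGGC of YY1. The promoter of Mrpl32, on the minus strand at chr13:14612988-14613287, holds TGCGCA at -203, -88, -82 and -67 relative to the start, of which those at -88 and -82 abut, and the reverse of AAGATGGC at -242. Neither that of Mrps14, on the plus strand at chr1:160194965-160195264, nor that of Mrpl50, on the minus strand at chr4:49521034-49521333, holds any of the 3. That of Mrps18c, on the plus strand at chr5:100798509-100798808, holds the reverse of CCGGAAG at -156. In Mrps21, on the minus strand at chr3:95871465-95871764, the reverse of CCGGAAG stands at 18 bases past the start. The promoter of Mrpl35, on the minus strand at chr6:71823735-71824034, holds AAGATGGC at 23 bases past the start.
Mrpl32: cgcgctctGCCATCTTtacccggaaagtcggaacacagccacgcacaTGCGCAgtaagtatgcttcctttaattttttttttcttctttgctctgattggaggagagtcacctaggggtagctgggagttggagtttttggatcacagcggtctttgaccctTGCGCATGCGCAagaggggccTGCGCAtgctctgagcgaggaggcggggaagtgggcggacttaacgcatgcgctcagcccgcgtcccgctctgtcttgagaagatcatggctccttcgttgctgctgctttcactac
Mrps14: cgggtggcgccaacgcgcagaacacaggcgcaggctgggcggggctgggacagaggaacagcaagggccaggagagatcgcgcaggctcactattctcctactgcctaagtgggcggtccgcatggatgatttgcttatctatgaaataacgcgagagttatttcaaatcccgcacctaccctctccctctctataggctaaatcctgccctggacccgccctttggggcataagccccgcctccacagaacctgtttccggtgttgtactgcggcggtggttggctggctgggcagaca
Mrps18c: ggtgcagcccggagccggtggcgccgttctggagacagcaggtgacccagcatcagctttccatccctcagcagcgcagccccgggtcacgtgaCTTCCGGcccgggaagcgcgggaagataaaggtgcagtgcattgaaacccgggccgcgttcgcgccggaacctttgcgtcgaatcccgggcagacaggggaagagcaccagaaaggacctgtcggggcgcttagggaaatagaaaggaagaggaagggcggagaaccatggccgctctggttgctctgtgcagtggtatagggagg
Mrpl50: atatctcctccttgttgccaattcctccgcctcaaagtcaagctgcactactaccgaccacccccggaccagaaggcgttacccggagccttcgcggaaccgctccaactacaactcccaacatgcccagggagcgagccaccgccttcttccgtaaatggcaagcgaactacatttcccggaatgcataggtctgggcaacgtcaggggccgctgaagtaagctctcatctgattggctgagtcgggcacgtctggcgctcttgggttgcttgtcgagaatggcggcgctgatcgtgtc
Mrps21: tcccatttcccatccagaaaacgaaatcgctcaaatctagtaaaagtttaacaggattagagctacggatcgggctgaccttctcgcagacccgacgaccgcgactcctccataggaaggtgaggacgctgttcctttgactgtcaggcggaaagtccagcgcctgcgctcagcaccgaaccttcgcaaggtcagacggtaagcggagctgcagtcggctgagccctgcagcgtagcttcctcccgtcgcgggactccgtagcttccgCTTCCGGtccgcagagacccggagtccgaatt
Mrpl35: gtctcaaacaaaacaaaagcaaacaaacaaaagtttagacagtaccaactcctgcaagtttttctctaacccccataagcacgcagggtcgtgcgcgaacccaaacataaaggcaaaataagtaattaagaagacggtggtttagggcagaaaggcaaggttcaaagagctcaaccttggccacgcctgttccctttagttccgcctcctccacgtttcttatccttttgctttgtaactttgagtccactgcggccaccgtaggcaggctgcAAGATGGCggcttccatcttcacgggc

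Over the family, CCGGAAG was present in 24 of 67 promoters (35.8%), against 20.7% of the promoters of 8725 tested genes and 9.93% of all 27025 genes with a promoter sequence. TGCGCA was present in 19 (28.4%, against 16.2% of tested genes and 8.79% of all), and AAGATGGC in 12 (17.9%, against 5.34% and 3.19%). At least 1 of these motifs was in 42 of the 67 (62.7%) and in 36.2% of tested genes. The GC box GGGCGG was in 49.3% of the members' promoters and in 67% of those of tested genes, the E-box CACGTG in 7.46% and 11.8%, CCAAT in 40.3% and 43.4%, and TATAAA in 7.46% and 8.8%. The 24 members with CCGGAAG had a median log2 fold change between genotypes of 0.15, and those without it one of 0.06. With TGCGCA the median was -0.01, and without it 0.14; with AAGATGGC it was 0.13, and without it 0.07. A match is a description of letters and not a site of binding.

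Many of the genes also start close to a neighbour on the other strand. An opposite start lay within 1000 bases upstream for 25 of the 67 members (37.3%) and for 20.2% of 8725 tested genes. Mrpl46 and Mrps11 are such a pair of members. Mrpl32 starts 205 bases from Psma2, which encodes a subunit of the proteasome, Mrpl18 starts 238 bases from Tcp1, which encodes a subunit of the cytosolic chaperonin, and Mrps27 starts 108 bases from Ptcd2. Their neighbours' log2 fold changes were 0.32 for Psma2 (SE 0.19), 0.25 for Tcp1 (SE 0.18) and -0.18 for Ptcd2 (SE 0.19), each of the same sign as its member and with an adjusted p of 1 by edgeR's quasi-likelihood test. In 8 of the 24 tested pairs, counted once per member, the signs were unlike: Mrpl51 stood at 0.49 and its neighbour Ncapd2 at -0.53 (SE 0.41), and Mrps7 at -0.45 and its neighbour Gga3 at 0.15 (SE 0.21). The neighbour was positive in 15 of the 24 pairs, against 47.4% of all tested genes, with a median of 0.04.

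Levels were compared between members per kilobase of coding sequence, using 1 GENCODE M21 transcript per gene. The annotation behind the authors' counts is not given in the sources used here. Counts are per gene, and reads on untranslated parts of a transcript were not separated from reads on coding parts. Coding sequence is a smaller share of the transcript in Mrps14 and Mrps17 than in Mrpl33. The order below therefore holds for this measure only, and levels per kilobase of whole transcript were not compared. In WT the scaled level spanned 4.11 to 328 CPM per coding kilobase, with a median of 60.8 and quartiles of 37.7 and 104. The median was 66.9 for the large and 43.4 for the small subunit. Mrpl33, a small protein with a bacterial counterpart, had the highest level per coding kilobase in WT (443 in CNS2KO and 328 ± 80 in WT), followed in the WT order by Mrps14 (454 in CNS2KO and 314 ± 28.5 in WT) and Mrps17 (260 in CNS2KO and 255 ± 30.8 in WT; SD, n = 5). Mrpl33 and Mrps14 did not differ beyond their spread in WT, and in CNS2KO Mrps14 stood first per coding kilobase. Mrps30, placed in the large subunit in structures despite its symbol, had the lowest level per coding kilobase, 2.62 in CNS2KO and 4.11 ± 1.9 in WT.

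The comparison of CNS2KO with WT asks whether resting regulatory T cells without the element differ in transcripts of the mitochondrial ribosome. As a family these genes stood 0.19 higher on the log2 scale in CNS2KO in summed level, and the genotypes overlapped. The 76 genes summed to 3902 CPM in CNS2KO 399 and 3607 CPM in CNS2KO 408. In WT they summed to 3021 (398), 3611 (402), 3283 (405), 2869 (1032) and 3806 CPM (1037). The highest library was CNS2KO 399, but CNS2KO 408 lay inside the WT range, below WT 402 and WT 1037. Without CNS2KO 399, the library with the red blood cell transcripts, the difference in summed level was 0.13 on the log2 scale. In bulk RNA, fewer cells of a type and less RNA per cell cannot be told apart.

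Of the 76 members, 47 had a positive and 29 a negative log2 fold change, and the median was 0.10. Over all 14424 genes tested, 47.4% were positive and the median was -0.03. By edgeR's quasi-likelihood test with Benjamini-Hochberg adjustment over all genes, 0 of the 76 members passed an FDR of 0.05, and 0% of all genes did. By DESeq2 and by limma-voom 0 members passed too. Each gave 8 members an unadjusted p under 0.05, where DESeq2 gave 496 and limma-voom 614 of all 14424 genes one. At an unadjusted p under 0.05, 7 members were higher in CNS2KO, where 1.54% of all genes were, and 1 was lower, where 0.964% were. Without CNS2KO 399, 43 members were positive and the median was 0.07. Without WT 1032, the library with the lowest sum, 42 were positive and the median was 0.03. Adjusted p was 1 for every one of the 76 by edgeR's quasi-likelihood test.

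**Figure D1:**
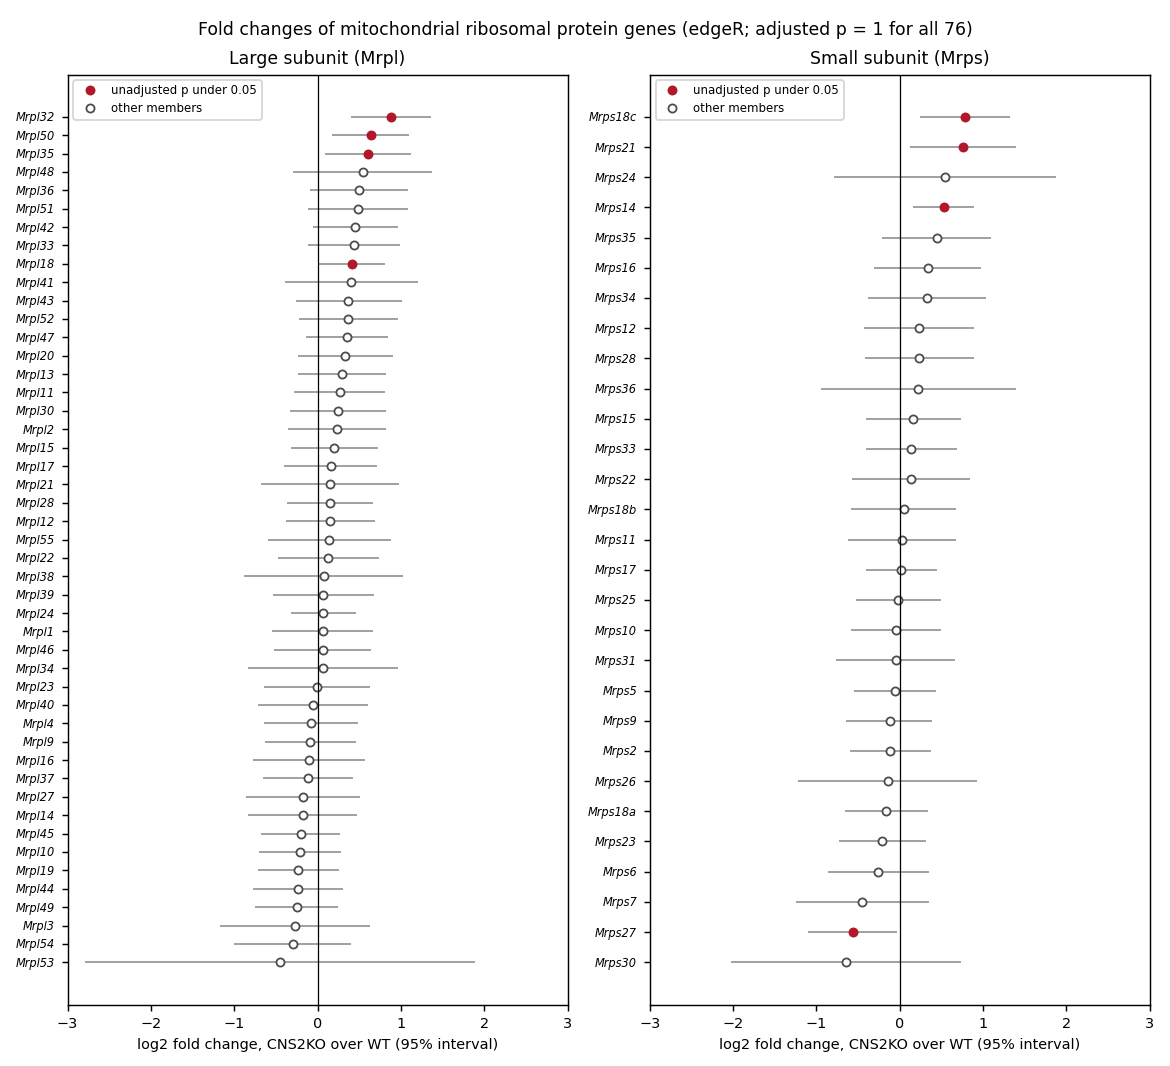
Log2 fold changes of the 76 genes, CNS2KO over WT, with 95% intervals (lines), large subunit left and small subunit right; filled points have an unadjusted p under 0.05. The 8 filled points run from Mrpl32 at 0.88 to Mrps27 at -0.56, and adjusted p was 1 for every gene.

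The large subunit had 31 positive fold changes of 47 (median log2 0.14) and the small subunit 16 of 29 (median 0.03). Members were also split by the number in the symbol, at 36 (Mrpl) and 21 (Mrps). This is a rough guide to bacterial counterparts and can misplace single genes. Among large subunit genes, the 28 numbered up to 36 had a median of 0.15, and the 19 with higher numbers had one of 0.08. Among small subunit genes, the 16 numbered up to 21 had a median of 0.03, and the other 13 had one of 0.13. Each of the 4 classes therefore held genes of both signs. The large subunit summed to 2672 and 2398 CPM in CNS2KO and to 1874 to 2596 CPM in WT.

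Both CNS2KO libraries lay above every WT library in 7 members, where 3.76% of all tested genes did, and below every one in 1 member, where 3% did. The largest log2 fold change of the 76 belonged to Mrpl32, the counterpart of bacterial protein L32, which an m-AAA protease trims after import so that it can enter the ribosome. It stood at 126 CPM in CNS2KO 399 and 106 CPM in CNS2KO 408, against 57.2, 59.5, 58.8, 53.9 and 86.4 CPM in WT 398, 402, 405, 1032 and 1037. Both CNS2KO values lay above the highest WT value, that of WT 1037, and the other 4 WT libraries lay close together. The means were 116 ± 14.1 CPM in CNS2KO (SD, n = 2) and 63.1 ± 13.2 CPM in WT (SD, n = 5). On the log2 scale Mrpl32 thus stood 0.88 higher in CNS2KO (SE 0.22, 95% interval 0.40 to 1.36), with an unadjusted p of 0.00183 and an adjusted p of 1 by edgeR's quasi-likelihood test. With single libraries left out it ranged from 0.75 to 1.02.

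The other large subunit genes of this kind were Mrpl50, Mrpl35, Mrpl42 and Mrpl18. Mrpl50, a protein found in mitochondria only, stood at 108 and 90.4 CPM in CNS2KO 399 and 408, against 51.7, 74.9, 71.5, 52.9 and 67.6 CPM in WT 398, 402, 405, 1032 and 1037 (log2 fold change 0.64, SE 0.21). Mrpl35, the counterpart of bacterial L35, stood at 110 and 81.4 CPM in CNS2KO, against 45.6, 77.7, 69.5, 55.7 and 67.4 CPM in WT (log2 fold change 0.60, SE 0.24). The lower CNS2KO value of Mrpl35 was close above the highest WT value. Mrpl42 stood at 93.4 and 89.7 CPM in CNS2KO, against 57.7, 72.7, 70.7, 47.1 and 86.5 CPM in WT. Its log2 fold change was 0.45 (SE 0.24), with an interval that includes 0. Mrpl18, the counterpart of bacterial L18, stood at 136 and 105 CPM in CNS2KO, against 85.7, 82, 101, 92.3 and 91.7 CPM in WT, with a log2 fold change of 0.41 (SE 0.18). In Mrpl18, too, CNS2KO 408 lay only just above the highest WT library. Without CNS2KO 399 the log2 fold change was 0.37 for Mrpl35 and 0.22 for Mrpl18.

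In the small subunit, Mrps14 and Mrps18c were higher in both CNS2KO libraries than in any WT library. Mrps14, the counterpart of bacterial S14, stood at 176 and 173 CPM in CNS2KO 399 and 408, against 104, 121, 127, 119 and 133 CPM in WT 398, 402, 405, 1032 and 1037. The CNS2KO libraries lay within a few CPM of each other and well above the highest WT library. Mrps14 stood 0.53 higher in CNS2KO on the log2 scale (SE 0.17, 95% interval 0.16 to 0.89), a value that ranged over 0.48 to 0.57 as single libraries were left out. Mrps18c is 1 of 3 mammalian relatives of bacterial S18. It stood at 60.4 and 80.1 CPM in CNS2KO, against 38.6, 50.1, 40.8, 28.7 and 46.5 CPM in WT, with a log2 fold change of 0.78 (SE 0.25). Its relatives Mrps18a and Mrps18b had log2 fold changes of -0.16 (SE 0.23) and 0.05 (SE 0.29), and their CNS2KO values lay among those of WT or just outside.

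**Figure D2:**
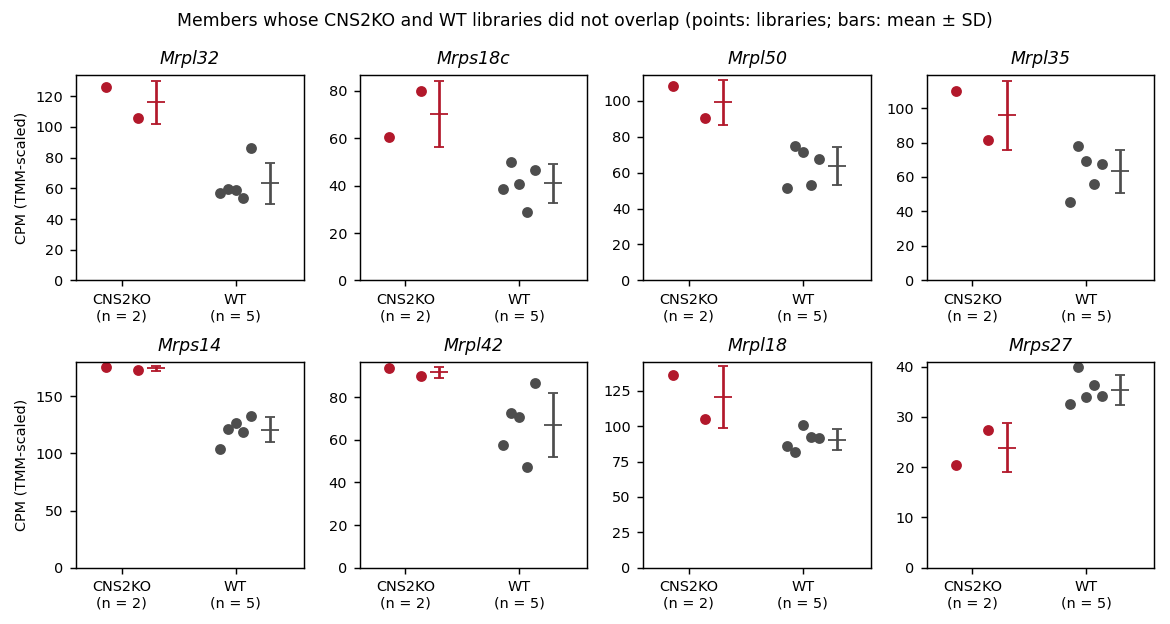
Level (CPM, y axes from 0) of the 8 members in which CNS2KO (left, 2 libraries) and WT (right, 5 libraries) did not overlap; points are libraries and bars are mean ± SD. Mrpl32 has the largest difference of means on the log2 scale, at 116 ± 14.1 CPM in CNS2KO and 63.1 ± 13.2 CPM in WT, and Mrps27 is the member that was lower in CNS2KO.

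Mrps27, an RNA-binding protein with pentatricopeptide repeats, was the member in which both CNS2KO libraries were lower. It stood at 20.5 and 27.3 CPM in CNS2KO 399 and 408, against 32.5, 39.9, 33.9, 36.3 and 34.1 CPM in WT 398, 402, 405, 1032 and 1037. Its log2 fold change was -0.56 (SE 0.24, 95% interval -1.10 to -0.03), with an unadjusted p of 0.0398 and an adjusted p of 1 by edgeR's quasi-likelihood test. Without CNS2KO 399 it was -0.37. Next by p were Mrps7, at 29.2 and 22.5 CPM in CNS2KO against 19.1 to 55.5 CPM in WT, and Mrpl49, at 57.3 and 43 CPM in CNS2KO against 46.3 to 64.6 CPM in WT. Mrpl19 stood at 53.5 and 63 CPM in CNS2KO and at 53.7 to 79.3 CPM in WT, and Mrps30 at 2.88 and 4.07 CPM in CNS2KO and at 3.05 to 9.41 CPM in WT. These 4 genes had log2 fold changes of -0.45, -0.25, -0.23 and -0.65 in that order, and in each the groups overlapped.

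Some members differed more between the CNS2KO libraries than between the genotypes. Mrps21, the counterpart of bacterial S21, stood at 71.2 CPM in CNS2KO 399 but at 36.5 CPM in CNS2KO 408, inside the WT values of 40, 35.2, 30.5, 23.2 and 30.6 CPM (398, 402, 405, 1032 and 1037). Its log2 fold change of 0.76 (SE 0.29) was 0.20 without CNS2KO 399 and 1.15 without CNS2KO 408. Mrps24 stood at 4.21 CPM in CNS2KO 399 and 22.4 CPM in CNS2KO 408, against 3.8 to 15 CPM in WT, so that its fold change turned from 0.54 to -1.13 on the log2 scale without CNS2KO 408. Mrps36, which is also known as a part of the oxoglutarate dehydrogenase complex, ran the other way, at 14.1 CPM in CNS2KO 399 and 4.45 CPM in CNS2KO 408, against 5.04 to 12 CPM in WT. Mrps26 stood at 4.63 and 9.86 CPM in CNS2KO 399 and 408, Mrps31 at 19.9 and 37 CPM, and Mrpl53, the large subunit gene with the fewest reads, at 2.27 and 1 CPM. WT spanned 5.73 to 12.8 CPM for Mrps26, 21.3 to 41 CPM for Mrps31 and 0.547 to 4.22 CPM for Mrpl53. Pseudogene rows exist for Mrpl23, Mrpl48 and Mrps36, with 1 to 277 reads per library, and reads of near-identical copies may be split between them, which leaves the values of these genes uncertain.

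Of the 4 members of each subunit with the most reads, Mrps14 and Mrpl18 are described above, and the other 6 overlapped between genotypes. Mrpl24, whose bacterial counterpart lies by the exit tunnel, stood at 136 and 145 CPM in CNS2KO and at 119 to 158 CPM in WT, with a log2 fold change of 0.07 (SE 0.18, 95% interval -0.32 to 0.46). Mrps17 had one of 0.02 (SE 0.19), Mrps25 one of -0.02 (SE 0.23), Mrps9 one of -0.12 (SE 0.24), Mrpl30 one of 0.24 (SE 0.26) and Mrpl15 one of 0.20 (SE 0.24). Without a scaling factor Mrps17 stood at -0.03, and with WT 398, 402 and 405 as the WT libraries Mrps9 stood at 0.08. Intervals of this width do not show that these levels were equal. For Mrpl10 and Mrpl12, which form the stalk that binds translation factors, the log2 fold changes were -0.21 (SE 0.22) and 0.15 (SE 0.25). Mrpl45, which lies by the tunnel exit at the inner membrane, had one of -0.20 (SE 0.22), and Mrps12, of the decoding center, one of 0.23 (SE 0.30).

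Variation among the libraries was shared by many members. CNS2KO 399 held the highest value of 22 members, WT 1037 of 19 and WT 402 of 16, while WT 1032 held the lowest value of 31. The median deviation of the 76 genes from the WT mean was 0.22 in CNS2KO 399 and 0.11 in CNS2KO 408 on the log2 scale. In WT it was -0.12 (398), 0.14 (402), -0.03 (405), -0.20 (1032) and 0.16 (1037). Over all genes tested the same medians lay between -0.03 and 0.07. The median coefficient of variation among the 5 WT libraries was 21% for the members. In their middle band of level it was 20.6% for 38 members and 21.8% for all 2380 tested genes, so members varied among WT libraries about as much as other genes of like level. Mrps2 varied least (6.93%) and Mrpl53 most (81.8%).

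**Figure D3:**
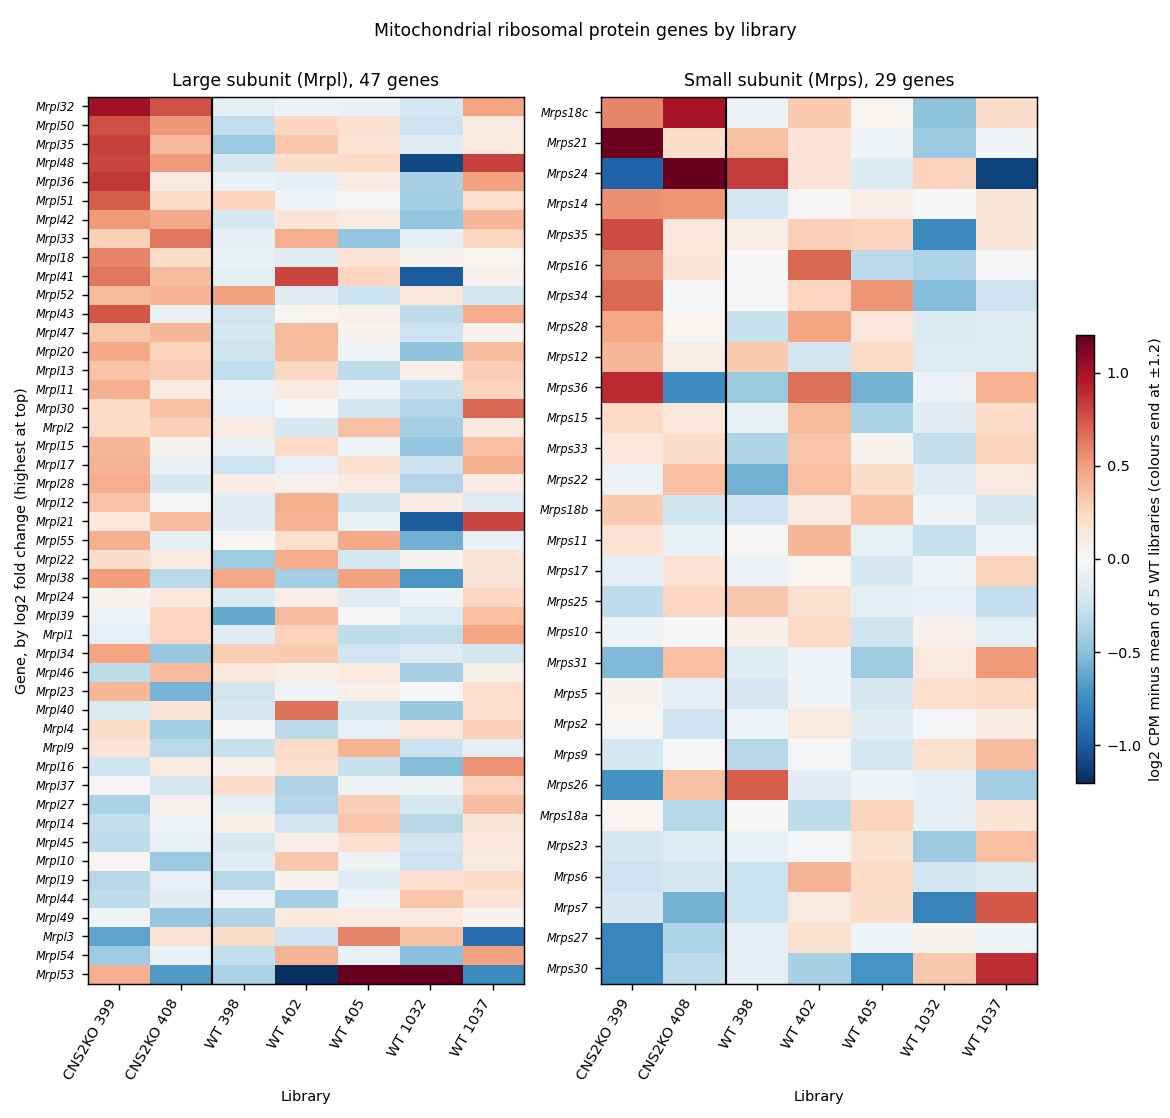
Level of each member (rows; large subunit left, small subunit right) in each library (columns, CNS2KO left of the black line), as log2 CPM minus the mean of the 5 WT libraries. Rows are ordered by log2 fold change from highest to lowest; red runs through many rows of CNS2KO 399 and WT 1037, which hold the highest value of 22 and 19 members, and blue through WT 1032, which holds the lowest value of 31.

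Members with short coding sequences had the higher fold changes, a relation that was weaker over the length of the whole transcript. Of the members with coding lengths of 195 to 480 bases, 20 of 26 were positive and the median log2 fold change was 0.29. Of those with 498 to 756 bases, 16 of 25 were positive (median 0.15). Of those with 762 to 1326 bases, 11 of 25 were positive (median -0.06). Over all 11325 tested protein-coding genes with a coding length (99.3% of 11405), genes in the same length ranges had medians of 0.15, 0.06 and -0.04 (the last range open upwards). Spearman's rho of coding length and fold change was -0.39 across the 76 members and -0.19 across those genes, which share libraries and depth, and genes are not independent replicates. By library, rho of coding length with the deviation from the WT mean was -0.42 in CNS2KO 399 and -0.17 in CNS2KO 408 across members, and -0.18 to 0.18 in WT. Across all coding genes it was -0.20 in CNS2KO 399, -0.04 in CNS2KO 408 and -0.25 (WT 1037) to 0.22 (WT 398) in WT. By transcript length, rho with the fold change was -0.11 across the members and -0.18 across all coding genes. Of the 8 members with an unadjusted p under 0.05, 5 were among the 26 with the longest transcripts (1764 to 7300 bases). That range, open upwards, holds 8902 of the 11325 coding genes, and genes with such a p among them were not counted. A relation to coding length was thus present in single WT libraries too, and its part in the fold changes of the members was not tested.

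**Figure D4:**
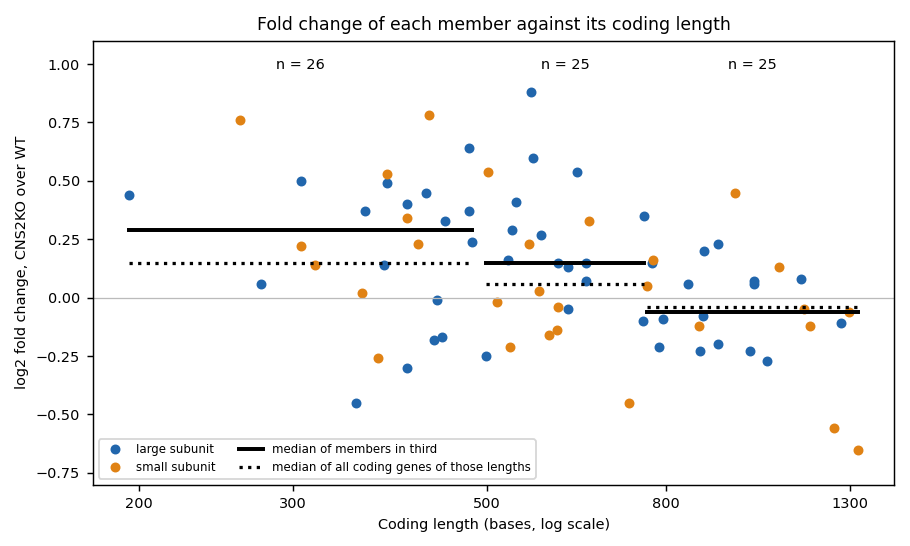
Log2 fold change of each member (y axis, CNS2KO over WT) against its coding length in bases (x axis, log scale), coloured by subunit. Solid bars are medians of the members in each range of length (0.29, 0.15 and -0.06), and dotted bars are medians of all coding genes of those lengths (0.15, 0.06 and -0.04).

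GC content went with the fold change less evenly. The 26 members with transcripts of 39.6 to 48.4% GC had a median log2 fold change of 0.21, the 25 next in GC content one of -0.04, and the 25 of 52.7 to 60.6% GC one of 0.06. Of the 8 separated members, 6 belong to the lowest range, and Mrpl18 (50.1%) and Mrps27 (52.2%) do not. That range, open downwards, holds 4650 of the 11325 coding genes, and separated genes among them were not counted. Spearman's rho of GC content with the deviation from the WT mean across members was -0.06 in CNS2KO 399 and -0.45 in CNS2KO 408, and -0.31 (WT 1037) to 0.30 (WT 398) in WT. Across all coding genes it was 0.06 in CNS2KO 399, -0.19 in CNS2KO 408 and -0.09 to 0.31 in WT. Base composition was thus related to the levels in a library of each genotype. Its part in the fold changes was not tested.

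Proteins of the mitochondrial ribosome with other kinds of symbol showed values of the same order. Of 7 such genes, 6 had a positive log2 fold change (median 0.19), and 0 passed an FDR of 0.05. Dap3, a GTP-binding protein of the small subunit, stood at 216 and 161 CPM in CNS2KO and at 123 to 188 CPM in WT (log2 fold change 0.28, SE 0.22, and 0.06 without CNS2KO 399). Aurkaip1 stood at 102 and 93.4 CPM in CNS2KO and at 67.6 to 93.3 CPM in WT, and its CNS2KO libraries lay just above the WT range. Log2 fold changes were 0.22 for the RNA-binding protein Ptcd3, 0.07 for Chchd1, 0.33 for Mrp63, 0.12 for Ict1, which releases stalled peptides (-0.22 without CNS2KO 399), and -0.06 for Gadd45gip1.

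Genes that build and serve the mitochondrial ribosome stood on both sides of 0. Of 25 assembly and rRNA processing genes 14 were positive (median 0.04), of 14 translation factors 5 (median -0.15), of 20 mitochondrial aminoacyl-tRNA synthetase genes 9 (median -0.02), and of 16 genes of mitochondrial transcription and RNA 9 (median 0.05). In each of these lists 0 genes passed an FDR of 0.05. Among the genes nearest the threshold were Ftsj2, an rRNA methyltransferase (0.98, SE 0.50, and 0.19 without CNS2KO 399), Ddx28, an RNA helicase of large subunit assembly (-0.76, SE 0.43, and -0.46 without CNS2KO 399), the initiation factor Mtif3 (0.47, SE 0.24, and 0.25 without CNS2KO 399) and Gfm2, which takes part in recycling (-0.34, SE 0.19, and -0.17 without CNS2KO 399). Cars2, the cysteinyl-tRNA synthetase, stood at 27.9 CPM in CNS2KO 399 and 7.75 CPM in CNS2KO 408, against 4.62 to 9.45 CPM in WT, so its log2 fold change of 1.33 (SE 0.47) was 0.14 without CNS2KO 399. The RNA exonuclease Pnpt1 stood at 106 and 104 CPM in CNS2KO and at 67.6 to 94.6 CPM in WT (0.41, SE 0.19), and Lrpprc, which stabilizes mitochondrial mRNA, at 18.2 and 25.9 CPM in CNS2KO and at 24.4 to 39.6 CPM in WT (-0.54, SE 0.28, and -0.31 without CNS2KO 399).

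Transcripts of mitochondrial DNA lay inside the WT range in summed level in both CNS2KO libraries. The ribosomal RNAs mt-Rnr1 and mt-Rnr2 had log2 fold changes of 0.10 (SE 0.26) and 0.04 (SE 0.23). Without a scaling factor mt-Rnr2 stood at -0.01. The 13 mitochondrial mRNAs had 4 positive fold changes (median -0.07) and summed to 18988 and 19888 CPM in CNS2KO and to 13471 to 26840 CPM in WT. WT 1037 and WT 402, which were high in ribosomal protein genes, were also the highest WT libraries in these mRNAs, with median deviations of 0.54 and 0.34 from the WT mean. Of the regulators of nuclear genes of mitochondria, 6 of 11 tested were positive (median 0.03). Gabpb1, a subunit of the GA-binding protein, stood at 136 and 86 CPM in CNS2KO and at 66.9 to 83.3 CPM in WT (0.51, SE 0.21, and 0.15 without CNS2KO 399), and Max stood at 0.48 (SE 0.24).

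Cytosolic ribosomal protein genes and nuclear genes of the respiratory chain had more uniform signs. Of 82 cytosolic ribosomal protein genes tested 75 were positive (91.5%, median log2 fold change 0.30), and of 80 respiratory chain genes tested 59 were (73.8%, median 0.27), against 61.8% of the mitochondrial family (median 0.10). In both of the others 0 genes passed an FDR of 0.05. In summed level, CNS2KO 399 was the highest library in all 3 families, at 92071 CPM for cytosolic ribosomal proteins and 12498 CPM for the respiratory chain, and WT 1032 lowest, at 56645 and 9276 CPM. In CNS2KO 408 the sums were 68826 and 11022 CPM, inside the WT ranges of 56645 to 78002 and 9276 to 11692 CPM.

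**Figure D5:**
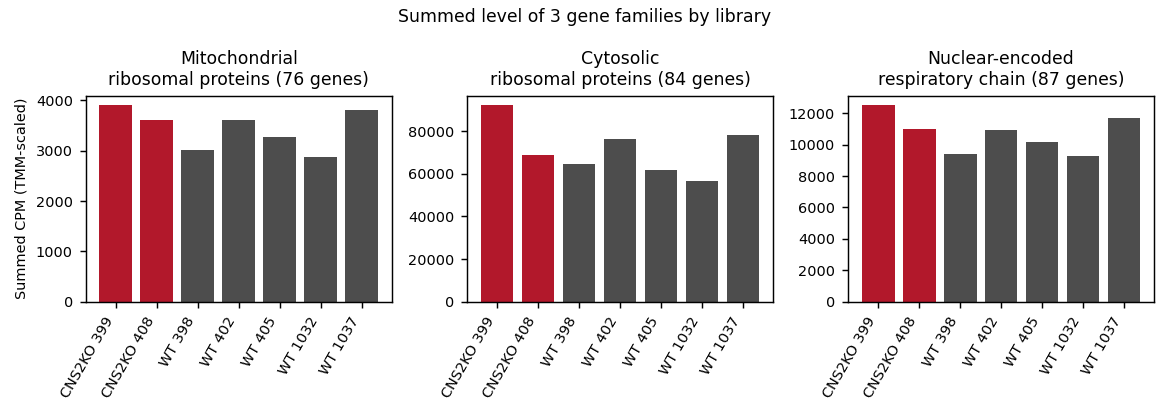
Summed CPM per library of mitochondrial ribosomal proteins (76 genes), cytosolic ribosomal proteins (84 genes) and the nuclear-encoded respiratory chain (87 genes), CNS2KO libraries in red and left of WT libraries in grey. In each family CNS2KO 399 is highest, WT 1032 is lowest, and CNS2KO 408 lies inside the range of the 5 WT libraries.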

How the data were processed

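RNA of sorted regulatory T cells was amplified by SMARTer and sequenced on Proton libraries, per the labels. The deposited table holds raw counts by gene symbol. STAR, BWA and edgeR, and mm9 as the build, stand in the submitters' processing notes without versions or roles, and the read counter and its use of strand are not given in the sources used here. Of the 9 value columns 2 were not used, both numbered 407 and identical; 5 counter summary rows were left out, and reads on genes made up 22 to 23.7% of a column. The other deposited tables were not used. Whether each sample is a separate animal is not in the labels; p-values therefore reflect sample-to-sample spread, possibly technical. No pair of libraries agreed within sampling noise (lowest chi-square per degree of freedom 31.6).

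The fit used edgeR 4.0.16 under R 4.3.3, with filterByExpr, TMM scaling, and the two-sided quasi-likelihood test of 2 CNS2KO and 5 WT libraries with Benjamini-Hochberg adjustment over 14424 genes (FDR 0.05). Each SE was taken as the absolute log2 fold change divided by the square root of F, and 95% intervals from the t quantile at the fit's total degrees of freedom. CPM are TMM-scaled over gene rows; deviations use a pseudocount of 0.1 CPM. Detection floors, at 3 counts, were 0.142 to 0.182 CPM and cover counting error only. The test was checked on simulated counts. DESeq2 1.42.0, limma-voom (limma 3.58.1), other scalings and filters, a fit with WT 398, 402 and 405 as the WT libraries, another with a term for 1032 and 1037, and each library left out were alternatives. Members and lists were chosen with earlier results of these data known. Named genes are, by rule, the 4 members of each subunit with the most reads and the one with the fewest, the 5 of smallest p per direction, those with separate groups, the 3 per direction with the largest ratio between the CNS2KO libraries, and up to 2 per other list; Mrpl10, Mrpl12, Mrpl33, Mrpl45, Mrpl46, Mrpl51, Mrps2, Mrps11, Mrps12, Mrps18a, Mrps18b, the other genes with 1 distant WT library and the neighbouring genes were named outside it, after their values were seen.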

Additional observations from a re-analysis of the deposited data

Results flagged for a closer look

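The 5 WT libraries were checked for a distant one in 107 genes or sums, and 10 had one. For normally distributed values chance gives about 1 in 20. Variation among the libraries was shared by many members, so the checks are not independent, and an excess over chance was not tested. WT 1037 was high in Mrpl30, at 163 CPM with 100 CPM in the next library, and in Mrpl32, at 86.4 CPM with 59.5 CPM in the next. It was low in Gabpb1, at 66.9 CPM with 79.6 CPM in the next. WT 1032 was low in Mrpl28 at 37.8 CPM (next 50.2), in Mrpl46 at 25.4 CPM (next 34.9) and in Mrps35 at 23.8 CPM (next 42.8). WT 398 was low in Mrpl49 at 46.3 CPM (next 60.9), and high in Mrps26 at 12.8 CPM (next 7.43) and in Ftsj2 at 9.43 CPM (next 5.19). WT 402 was high in Mrps16 at 71.7 CPM (next 44.8).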

How the results depend on the processing

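Members past an FDR of 0.05 numbered 0 in every setting run. Over all genes the count was 0 except without a filter on low counts, where it was 8, none of them a member. Members at an unadjusted p under 0.05 numbered 8, beside 361 of all 14424 genes tested. With WT numbers of 3 digits only (398, 402 and 405) they numbered 4, beside 271 of 13999 genes. A term for libraries 1032 and 1037 gave 4 too, beside 235 of 14424 genes. With 1 WT library left out they ranged from 6 to 10. The 6 stood beside 250 of 14154 genes (without WT 405) and 315 of 14259 (without WT 1032), and the 10 beside 384 of 14183 (without WT 1037). In these fits without 1 WT library the count of genes past the threshold was 0. With any 1 library left out, the median log2 fold change of the members ranged from 0.03 (without WT 1032) to 0.17 (without CNS2KO 408). Their summed level ranged from 0.13 to 0.24 on the log2 scale. Without a scaling factor the members' median was 0.05 and that of all genes -0.08. Where a CNS2KO library was left out, the lone sample was assumed to vary like the WT libraries.

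Signs turned in at least 1 setting in 13 of 46 named genes, and, of the 76 members, in 18 without CNS2KO 399 and 14 without CNS2KO 408. Without a scaling factor Mrps17 stood at -0.03 and mt-Rnr2 at -0.01. With WT numbers of 3 digits only, and with a term for libraries 1032 and 1037, Mrps9 stood at 0.08 and Mrps31 at 0.19. With 1 library left out, signs turned within these ranges: Mrps17 -0.14 to 0.17, Mrps24 -1.13 to 1.30, Mrps25 -0.33 to 0.23, Mrps26 -0.80 to 0.30, Mrps31 -0.57 to 0.34, Mrps36 -0.83 to 0.82, Mrpl53 -1.14 to 0.01, Gadd45gip1 -0.33 to 0.16, Ict1 -0.22 to 0.40, Chchd1 -0.03 to 0.14, mt-Rnr1 -0.02 to 0.24 and mt-Rnr2 -0.08 to 0.23. The causes were not tested. With 10 CPM required in 3 libraries, 72 members were tested. No paired analysis was possible because the groups compared share no sample number once both columns numbered 407 are left out.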
